A study of Mus musculus with 18 samples.

Results

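Levels of 37 genes of the amino acid stress response and of amino acid supply were described in cKit-positive mouse bone marrow cells, over 18 RNA-seq libraries. The genes were chosen by name from the 41079 genes of the deposited count tables: regulators around ATF4, stress effectors, enzymes of serine, one-carbon, asparagine, arginine and proline metabolism, and amino acid transporters. The rule used gene names and no measured value. Cells were wild type (WT) or carried AE9a, a splice form of the leukaemia fusion AML1-ETO that joins RUNX1 to RUNX1T1. Each genotype received DMSO (the solvent control), C16 or RE, with 3 libraries in each of the 6 groups. The study concerns inhibition of WDR5 and MLL1, but which compound acts on which, the dose and the time are not given in the sources used here, nor are the age of the mice and the way AE9a was brought in. Libraries held 16053727 to 27207748 counted fragments. Levels are given as CPM, fragments per 1000000 of a library's total, in the order of replicates 1, 2 and 3. Changes are log2 fold changes ± standard error from edgeR's quasi-likelihood test with 3 libraries a group, and a gene was called higher or lower at an adjusted p under 0.05. Nothing in the labels ties replicates to separate animals; what the p-values weigh is the scatter of these libraries, which may be technical. C16 and RE were each compared with the same DMSO libraries, and their values against DMSO therefore share those controls.

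The integrated stress response is a signalling pathway in which kinases that sense missing amino acids, unfolded protein in the endoplasmic reticulum, missing haem or double-stranded RNA phosphorylate the translation factor eIF2. General translation then slows while the Atf4 messenger is translated more, so that ATF4 protein can rise without more Atf4 RNA. ATF4 binds C/EBP-ATF composite sites and switches on genes that make and import amino acids, charge tRNAs and, through CHOP (Ddit3), adjust or end the response. Serine made by PHGDH, PSAT1 and PSPH feeds the mitochondrial one-carbon enzymes SHMT2 and MTHFD2, which supply dividing blood cells with units for nucleotide synthesis.

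The core of such a composite site was looked up in RefSeq promoters (GRCm38.p6, 250 bases before to 50 after a gene's start), which covered 32 of the 37 genes; Aldh1l2, Cth, Slc7a5, Eif4ebp1 and Slc1a5 had no entry. TGATGNAA, or TTNCATCA on the other strand, stood in 10 of the 32 genes: Asns, Atf3, Chac1, Herpud1, Nupr1, Pycr1, Slc1a4, Slc7a11, Trib3 and Vldlr. The same letters stood in 4.51% of all 27025 genes with an entry (3.97% of all 32851 promoters). The stricter TGATGCAA, whose matches are all matches of the first motif too, stood in 8 of the 32 genes and in 1.03% of all genes. An E-box, CACGTG, stood in 4 of the 32 genes and in 8.09% of all genes. The windows below show the match in capitals for 1 cystine transporter, 1 enzyme, 1 effector and 1 regulator. They lie at chr3:50443627-50443705, minus strand, chr6:7693210-7693258, minus strand, chr2:119351023-119351082, plus strand and chr7:126625547-126625606, minus strand, each printed along the gene's own strand.
Slc7a11: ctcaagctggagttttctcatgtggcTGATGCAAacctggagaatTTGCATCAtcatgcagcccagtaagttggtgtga
Asns: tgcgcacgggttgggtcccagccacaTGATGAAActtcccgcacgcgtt
Chac1: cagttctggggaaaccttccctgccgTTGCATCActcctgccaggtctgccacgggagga
Nupr1: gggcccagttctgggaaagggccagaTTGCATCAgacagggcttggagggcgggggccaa
Slc7a11 carried 2 matches, the first 66 bases and the second 47 bases before the start. The match of Asns began 23 bases before its start. Phgdh, Psat1, Shmt2 and Mthfd2 had no match in this window, which says only that these letters are not there.

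Libraries were first checked against their labels. Runx1t1, part of the fusion, stood at 34.5, 46.8 and 38.7 CPM in AE9a DMSO and at 34.5, 42.7 and 43.2 CPM in AE9a RE libraries, but at 2.35, 4.06 and 0.205 CPM in the libraries labelled AE9a C16, against at most 0.402 CPM in WT libraries. Kit, the gene of the sorted marker, stood at 886, 1206 and 1001 CPM in AE9a DMSO, 269.6, 312 and 215 CPM in AE9a C16 and 1331, 1551 and 1541 CPM in AE9a RE libraries, and at 60.8 to 221 CPM in WT libraries. Over all genes, the nearest library of another group to each of the 3 libraries labelled AE9a C16 was WT C16 replicate 2. Their root mean square log2 distance to it was 0.704 to 0.744, against 0.349 to 0.686 among themselves, where replicate 3 stood apart. WT replicate 2 lay 0.863 to 1.16 from the other libraries of its group under each treatment, and its primary granule and neutrophil marker sum was 17156 CPM under DMSO, against 4733 and 4702 CPM in replicates 1 and 3. The sum of 12 erythroid markers was 878, 1119.9 and 951 CPM in AE9a DMSO, 75.4, 70.5 and 26.8 CPM in AE9a C16 and 576, 689.9 and 691 CPM in AE9a RE libraries, with none of the 12 at 0. That of 12 mast cell, basophil and eosinophil markers was 10516, 13929 and 11232, 1761, 2251 and 322, and 16628, 18851 and 18767 CPM in the same groups. That of 11 primary granule and neutrophil markers was higher in AE9a C16, at 6343, 5596 and 6002, 10240, 9875 and 12006, and 6229, 5772 and 4730.5 CPM, and that of 10 megakaryocyte and platelet markers lower, at 397, 337 and 269, 131, 151 and 58.7, and 552, 464 and 424 CPM. In bulk RNA, fewer cells of a type and less RNA per cell cannot be told apart. The part of these shifts in the results below was not tested. Results for AE9a C16 are those of the libraries so labelled, and results in WT cells are given with and without replicate 2.

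Under DMSO the 37 genes spanned more than 3 orders of magnitude per exon length (FPKM, CPM per kilobase of exon; mean ± SD of 3 libraries). In AE9a cells Atf4 (chromosome 15, 80139385 to 80141746, GRCm39) stood highest at 128 ± 6.66 FPKM. It was followed by Slc7a5, the large neutral amino acid transporter LAT1, at 126 ± 3.79 FPKM, and the levels of the pair overlapped. Phgdh, the first enzyme of serine synthesis, came next at 112 ± 6.84 FPKM, then Slc1a5, the glutamine carrier ASCT2, at 85.1 ± 1.84 FPKM, Shmt2 at 71.6 ± 5.47 FPKM and Slc38a2 at 65.4 ± 0.805 FPKM. WT cells had the same 6 genes on top, with Atf4 at 131 ± 2.77, Phgdh at 94.7 ± 13.4, Slc1a5 at 82.5 ± 1.34 and Slc7a5 at 76.3 ± 10.7 FPKM. Under C16 in AE9a cells Phgdh was first at 236 ± 11.2 FPKM and Atf4 next at 195 ± 10.6 FPKM, and under RE Slc7a5 was first at 138 ± 2.55 FPKM. The lowest was Cbs, the first enzyme of transsulfuration, with 0.0491 ± 0.0385 FPKM in AE9a and 0.0470 ± 0.0312 FPKM in WT cells under DMSO. Cbs held 1 to 14 fragments a library and did not pass the filter on low counts, so 36 of the 37 genes were tested.

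**Figure D1:**
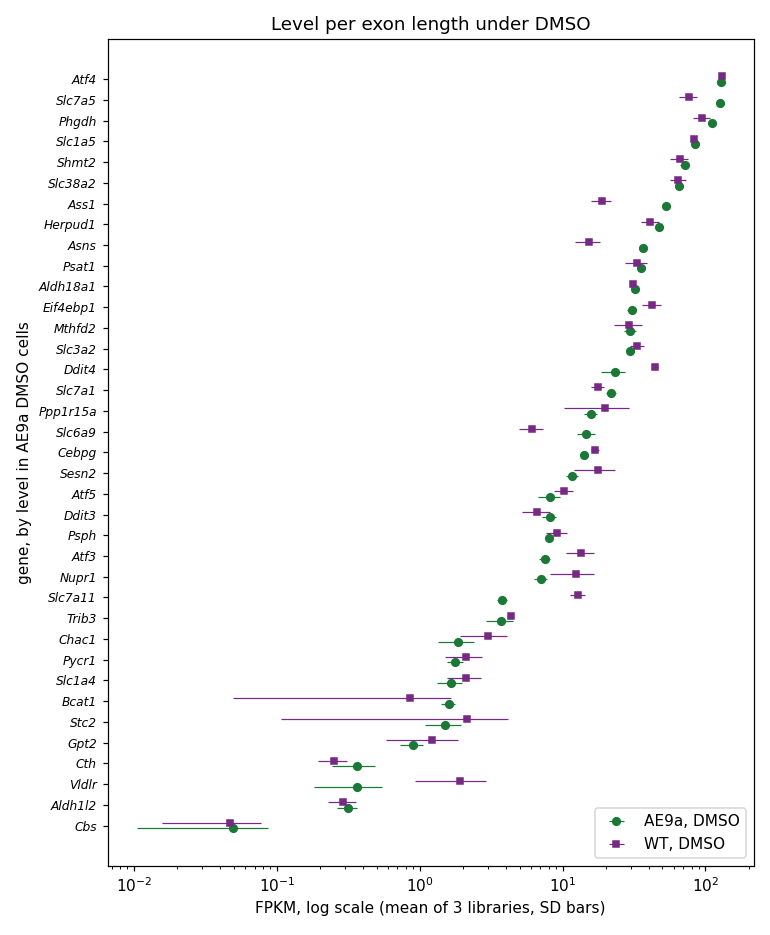
Level per exon length of each gene under DMSO, in FPKM on a log axis, ordered by the AE9a level. Points are means of 3 libraries and bars are SD, with circles for AE9a and squares for WT cells. Atf4 stands highest in both genotypes (128 and 131 FPKM) and Cbs lowest, while Asns, Ass1, Slc6a9, Slc7a11 and Vldlr show wide gaps between the genotypes.

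In AE9a cells C16 raised the enzymes that make serine and its one-carbon units and the Atf4 messenger, while several textbook markers of the stress response, Ddit3, Trib3, Ddit4, Sesn2, Ppp1r15a and Asns, fell. Other stress genes did not fall with them. Stc2 and Eif4ebp1 rose, and Atf3, Atf5, Cebpg, Nupr1, Chac1, Herpud1 and Vldlr were not called with all libraries. RE moved the serine enzymes the other way, downwards and by less. Against DMSO, C16 raised 11 and lowered 9 of the 36 tested genes in a background where 66.3% of all genes were called (33.1% higher and 33.2% lower), and RE raised 5 and lowered 10 where 29.0% were called (12.2% higher and 16.8% lower). Directly compared, 18 genes stood higher and 10 lower under C16 than under RE, where 74.6% of all genes were called (37.5% higher and 37.2% lower). The members' share of 55.6% under C16 is below its background, 41.7% under RE is above it, and 77.8% between the compounds is close to it. Their median log2 change was 0.19 under C16 and -0.10 under RE, against medians near 0 over all genes. Without AE9a C16 replicate 3 the calls under C16 were 26 (15 higher and 11 lower) in a background of 64.8% of all genes: Atf3, Nupr1, Ass1 and Slc7a1 were added as higher and Herpud1 and Pycr1 as lower. Each of the 20 calls under C16 held in all 10 alternatives run.

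**Figure D2:**
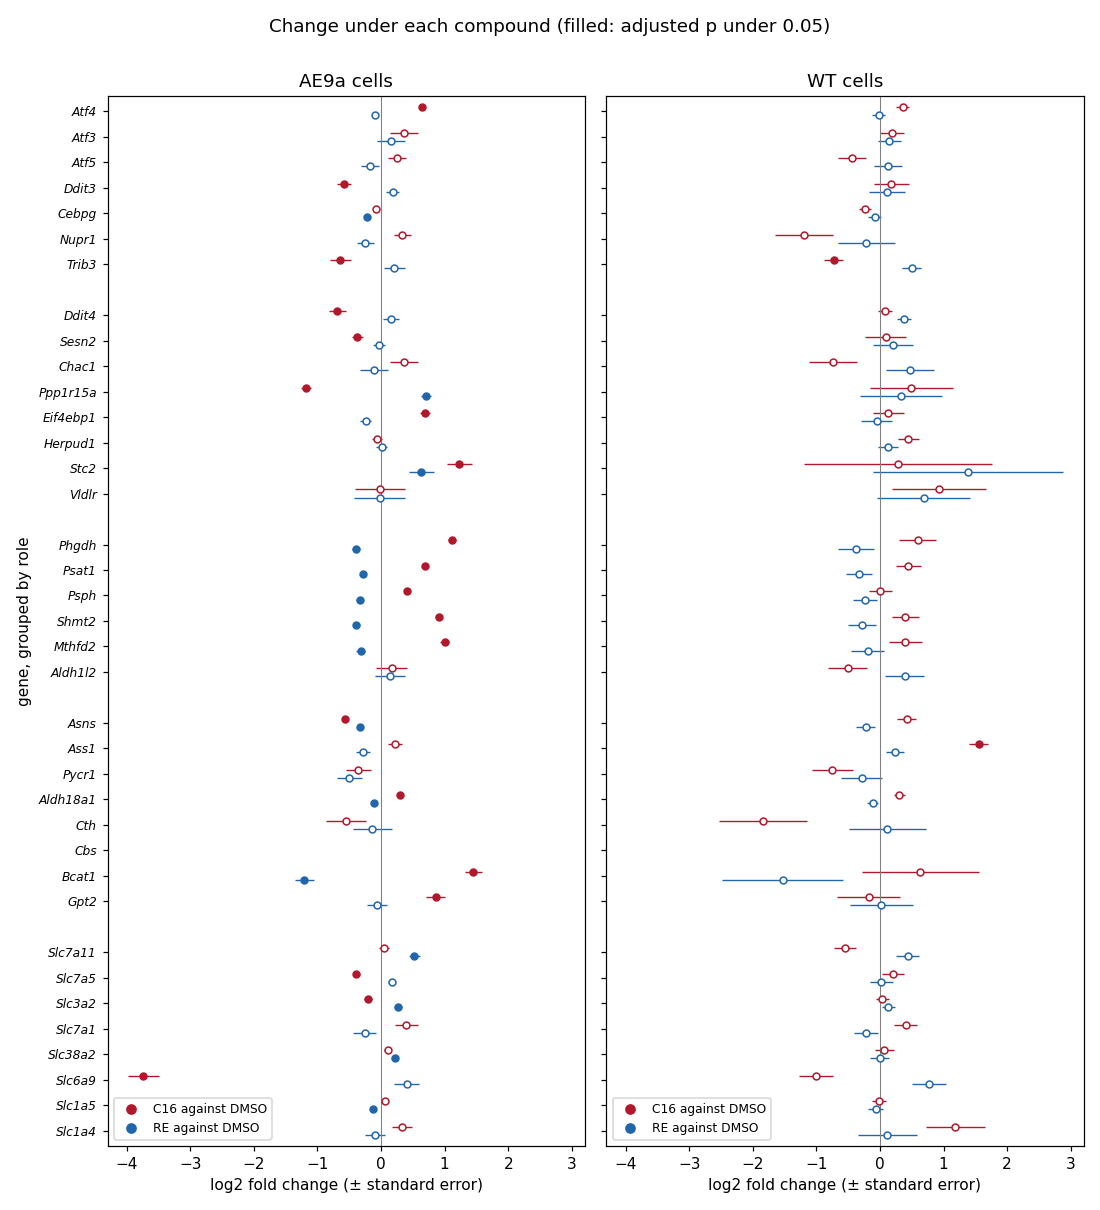
Log2 fold change against DMSO of the 36 tested genes by role, in AE9a (left) and WT cells (right), with standard errors as bars. Red is C16 and blue is RE, and filled points passed an adjusted p under 0.05. In AE9a cells 5 of 6 serine and one-carbon enzymes lie right of 0 under C16 and left of 0 under RE, and Slc6a9 lies farthest left at -3.74 under C16, while in WT cells only Ass1 and Trib3 under C16 are filled.

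Serine and one-carbon enzymes rose in 5 of 6 cases under C16 in AE9a cells, and the same 5 fell under RE. Over all genes, 33.1% were called higher under C16 and 16.8% lower under RE. Phgdh (chromosome 3, 98220487 to 98247285) stood at 221, 196 and 210.2 CPM under DMSO, at 442, 421 and 463 CPM under C16 and at 166, 145 and 152 CPM under RE. All C16 libraries lay above, and all RE libraries below, the DMSO libraries, with changes of log2 1.11 ± 0.06, adjusted p = 1.5e-06 under C16 and log2 -0.40 ± 0.06, adjusted p = 0.0018 under RE. Shmt2 (chromosome 10, 127352992 to 127358313), which turns serine into glycine in mitochondria, stood at 177, 152 and 166 CPM under DMSO, at 296, 294 and 316 CPM under C16 and at 126, 118 and 123 CPM under RE. The groups did not overlap, and the changes were log2 0.91 ± 0.05, adjusted p = 2.2e-06 under C16 and log2 -0.39 ± 0.05, adjusted p = 0.0017 under RE. Mthfd2 (chromosome 6, 83282686 to 83302926), the mitochondrial methylene-tetrahydrofolate dehydrogenase, stood at 76.6, 63 and 72.1 CPM under DMSO, at 133, 135 and 145 CPM under C16 and at 58.8, 51 and 54.5 CPM under RE. It rose by log2 1.0 ± 0.07, adjusted p = 4.1e-06 under C16 and changed by log2 -0.32 ± 0.07, adjusted p = 0.012 under RE, a call lost at an adjusted p of 0.052 without DMSO replicate 1 or without RE replicate 2. Psat1 (chromosome 19, 15882487 to 15902423), the transaminase of serine synthesis, stood at 235, 209 and 215 CPM under DMSO, at 336, 351 and 352 CPM under C16 and at 183, 168 and 177 CPM under RE. Its libraries were high in all 3 C16 samples and low in all 3 RE samples, with changes of 0.69 ± 0.05 and -0.28 ± 0.05 (adjusted p = 3.3e-06 and 0.0037). Psph, the phosphatase that releases serine, stood at 32.7, 32 and 30.1 CPM under DMSO, at 41.7, 38.9 and 42.1 CPM under C16 and at 24.5, 24.1 and 24.4 CPM under RE, for changes of 0.41 ± 0.05 and -0.33 ± 0.05 (adjusted p = 8.9e-05 and 0.0023). Between the compounds the 5 genes stood 0.74 (Psph) to 1.51 (Phgdh) log2 higher under C16. The primary granule and neutrophil marker sum given above was also highest in the C16 libraries without overlap, and its part in these changes was not tested. The exception was Aldh1l2, which burns one-carbon units in mitochondria: it was expressed at 2.71, 3.45 and 2.55 CPM under DMSO and changed by log2 0.17 ± 0.24, adjusted p = 0.56 under C16.

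**Figure D3:**
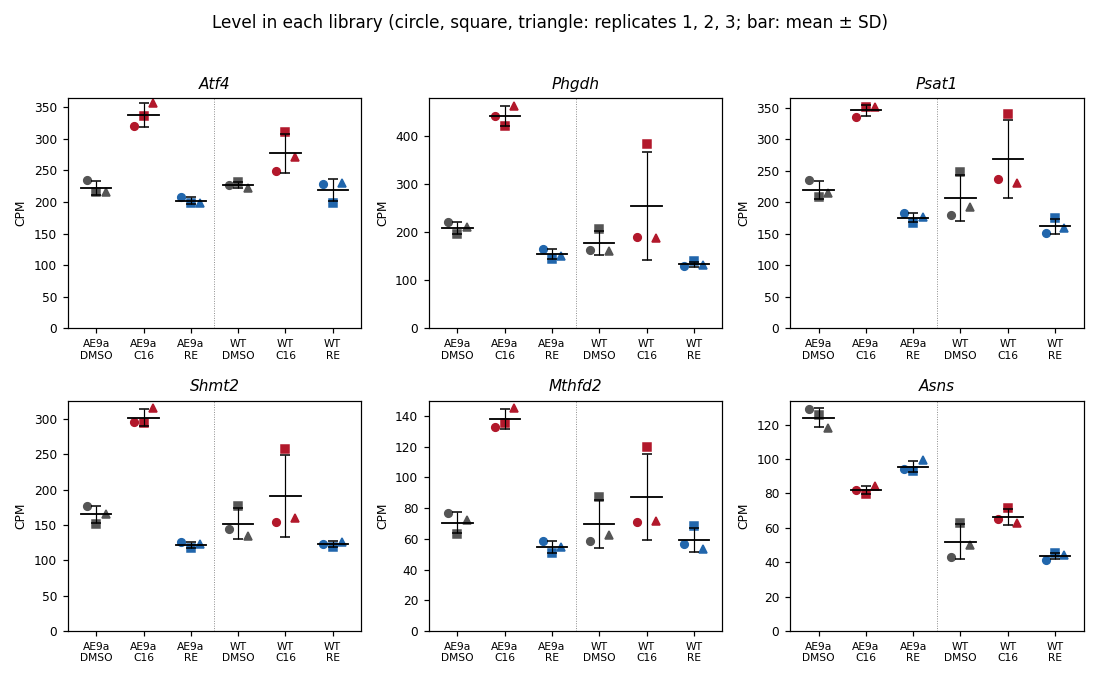
Level in CPM of Atf4, 4 serine and one-carbon enzymes and Asns in each of the 18 libraries, with circles, squares and triangles for replicates 1, 2 and 3 and bars for mean ± SD. In AE9a cells Phgdh runs from 421 to 463 CPM under C16 and stays at or below 221 CPM elsewhere, whereas Asns is lower under both compounds; in WT cells replicate 2 (squares) stands highest for the serine enzymes under DMSO and C16.

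Of the 7 regulators, Atf4 rose under C16 while Ddit3 and Trib3 fell, and under RE Cebpg alone was called, lower. Atf4 stood at 235, 215 and 215 CPM under DMSO, at 319.6, 337 and 356 CPM under C16 and at 208, 199 and 199 CPM under RE in AE9a cells. All C16 libraries were above every DMSO and RE library, and its changes were log2 0.64 ± 0.05, adjusted p = 4.5e-06 under C16 and log2 -0.09 ± 0.05, adjusted p = 0.17 under RE. Ddit3 (chromosome 10, 127126662 to 127132160), which encodes the pro-apoptotic factor CHOP, stood at 20.8, 22.9 and 18.1 CPM under DMSO, at 14.1, 14.7 and 11.6 CPM under C16 and at 23.3, 22.3 and 22.6 CPM under RE. The C16 libraries lay below the others, with changes of log2 -0.58 ± 0.11, adjusted p = 0.0012 under C16 and log2 0.18 ± 0.11, adjusted p = 0.23 under RE. Trib3, a pseudokinase that restrains ATF4 and CHOP, stood at 9.15, 7.87 and 5.86 CPM under DMSO, at 5.20, 5.01 and 4.10 CPM under C16 and at 8.62, 8.82 and 8.26 CPM under RE. It fell under C16 (log2 -0.64 ± 0.16, adjusted p = 0.0069), and its change under RE was log2 0.21 ± 0.16, adjusted p = 0.35. Cebpg, a dimer partner of ATF4, stood at 66.6, 66.5 and 67.3 CPM under DMSO, at 62.9, 63 and 60.2 CPM under C16 and at 53.3, 56.8 and 57.4 CPM under RE. It fell slightly under RE (log2 -0.21 ± 0.05, adjusted p = 0.0086) and gave log2 -0.07 ± 0.05, adjusted p = 0.18 under C16. Atf3, Atf5 and Nupr1 were not called against DMSO by either compound, and their changes ranged from -0.25 (Nupr1, RE) to 0.37 (Atf3, C16). Without AE9a C16 replicate 3, Atf3 (log2 0.56 ± 0.17, adjusted p = 0.015) and Nupr1 (log2 0.41 ± 0.14, adjusted p = 0.024) were called higher under C16. Directly compared, Atf4, Atf5, Cebpg and Nupr1 stood higher and Ddit3 and Trib3 lower under C16 than under RE. In that comparison the Atf5 call was lost without AE9a C16 3 or RE 3, and the Cebpg call by DESeq2 and without AE9a C16 1, C16 2 or RE 1. With the replicate block Atf3 was also called under C16 (log2 0.34 ± 0.12, adjusted p = 0.039).

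Among the 8 stress effectors and secretory genes, C16 lowered 3 (Ppp1r15a, Ddit4 and Sesn2) and raised 2 (Eif4ebp1 and Stc2). The called share of the 8 genes was 62.5%, close to the 66.3% over all genes. Ppp1r15a (chromosome 7, 45172341 to 45175692), whose product GADD34 directs the phosphatase that resets eIF2, stood at 32.7, 37.3 and 40.5 CPM under DMSO, at 15.9, 16.1 and 15.8 CPM under C16 and at 57.2, 57 and 60.8 CPM under RE. The C16 libraries were lowest and the RE libraries highest without overlap, and both changes were called, in opposite directions (log2 -1.17 ± 0.08, adjusted p = 3.1e-06 for C16 and log2 0.71 ± 0.08, adjusted p = 6.8e-04 for RE). Ddit4 (REDD1) and Sesn2 (sestrin 2), which hold back mTORC1, fell under C16 by log2 changes of -0.69 ± 0.13 and -0.37 ± 0.09 (adjusted p = 0.0013 and 0.0052). Under RE they gave 0.16 ± 0.13 and -0.03 ± 0.09 and were not called. Eif4ebp1, the cap-binding repressor 4E-BP1, stood at 31.7, 27.2 and 30.6 CPM under DMSO, at 48.1, 50.4 and 42.5 CPM under C16 and at 26, 25.1 and 22.4 CPM under RE. It rose under C16 (log2 0.69 ± 0.08, adjusted p = 6.9e-05) and was not called under RE (log2 -0.24 ± 0.09, adjusted p = 0.063) except without DMSO replicate 2. Stc2, a secreted glycoprotein, stood at 3.07, 3.23 and 1.83 CPM under DMSO, at 6.14, 6.47 and 6.21 CPM under C16 and at 4.12, 4.52 and 3.68 CPM under RE. It rose under both compounds (log2 1.23 ± 0.19, adjusted p = 3.6e-04 for C16 and log2 0.63 ± 0.20, adjusted p = 0.041 for RE), though the RE call was lost without any one of DMSO 1 and 3 and RE 1, 2 and 3 (adjusted p = 0.064 to 0.14). Herpud1, a component of endoplasmic reticulum degradation, stood at 101, 94.2 and 94.5 CPM under DMSO, at 82.5, 83.3 and 105 CPM under C16 and at 96.4, 95.2 and 90.7 CPM under RE. It was not called, but without C16 replicate 3, the highest of all, it was lower under C16 (log2 -0.19 ± 0.04, adjusted p = 0.0038). Chac1, which degrades glutathione, and Vldlr, a lipoprotein receptor, stood at 2.92 and 4.63 CPM under DMSO and were not called by either compound.

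The 8 enzymes outside the serine pathway did not move together. Asns (chromosome 6, 7675169 to 7693209), asparagine synthetase, fell under both compounds. It stood at 129, 125 and 118 CPM under DMSO, at 81.8, 79.7 and 84.5 CPM under C16 and at 94, 93.2 and 99.4 CPM under RE, all C16 and RE libraries lay below all DMSO libraries, and its changes were log2 -0.56 ± 0.05, adjusted p = 8.3e-06 for C16 and log2 -0.33 ± 0.05, adjusted p = 0.0017 for RE. Bcat1 (chromosome 6, 144939561 to 145021883), the cytosolic transaminase of branched-chain amino acids, moved farthest in opposite directions. It stood at 14.8, 12.7 and 15.9 CPM under DMSO, at 36.3, 39.1 and 40.2 CPM under C16 and at 6.92, 4.60 and 6.84 CPM under RE, without overlap, for changes of log2 1.45 ± 0.13, adjusted p = 1.3e-05 and log2 -1.21 ± 0.15, adjusted p = 0.001; between the compounds it differed by 2.66 ± 0.15. Gpt2, the mitochondrial alanine transaminase, stood at 9.0, 7.57 and 6.26 CPM under DMSO, at 13.3, 12.4 and 14.9 CPM under C16 and at 8.18, 7.16 and 5.94 CPM under RE. It rose under C16 (log2 0.86 ± 0.15, adjusted p = 6.9e-04) and gave log2 -0.06 ± 0.15, adjusted p = 0.81 under RE. Aldh18a1, which starts proline synthesis, rose under C16 (0.29 ± 0.04) and fell under RE (-0.12 ± 0.04), with adjusted p of 1.4e-04 and 0.049; the RE call was lost in 8 of 10 alternatives, DESeq2 and RLE scaling among them. Ass1 (chromosome 2, 31360282 to 31410682), argininosuccinate synthase of arginine synthesis, stood at 92.3, 80.2 and 86.7 CPM under DMSO, at 106, 107 and 80.8 CPM under C16 and at 75.4, 68.2 and 63.6 CPM under RE. It was not called against DMSO under C16 (log2 0.22 ± 0.11, adjusted p = 0.1) or RE (log2 -0.28 ± 0.11, adjusted p = 0.083), though the RE change was called with the replicate block (adjusted p = 0.042) and C16 stood 0.50 ± 0.11 above RE. Without C16 replicate 3, the lowest of its group, it was called higher under C16 (log2 0.34 ± 0.07, adjusted p = 0.0016). Pycr1, the last enzyme of proline synthesis, and Cth, of transsulfuration, gave -0.36 ± 0.20 and -0.56 ± 0.32 under C16 and were not called; without C16 replicate 3 Pycr1 was called lower (log2 -0.52 ± 0.20, adjusted p = 0.041).

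Of the 8 transporters, C16 lowered 3 and raised none, and RE raised 3 and lowered 1. Over all genes, C16 lowered 33.2% and raised 33.1%, and RE raised 12.2% and lowered 16.8%. Slc6a9 (chromosome 4, 117692240 to 117726502), the glycine transporter GlyT1 that red cell precursors use for haem, showed the largest change of all 36 genes. It stood at 50.2, 64.7 and 65.8 CPM under DMSO, at 5.0, 5.72 and 2.31 CPM under C16 and at 70.2, 76.5 and 85.3 CPM under RE; the C16 libraries lay far below the others, with a change of log2 -3.74 ± 0.24, adjusted p = 2.7e-06, and RE gave log2 0.40 ± 0.20, adjusted p = 0.15. The erythroid, mast cell and megakaryocyte marker sums given above all fell in the same C16 libraries. Under RE the erythroid sum lay below its DMSO values in every library, while the mast cell and megakaryocyte sums lay above theirs. The part of these markers in the Slc6a9 change was not tested. Slc7a5 (chromosome 8, 122607885 to 122634425) stood at 439, 459 and 433 CPM under DMSO, at 340.5, 350.2 and 304 CPM under C16 and at 477, 482 and 494 CPM under RE. It fell under C16 (log2 -0.39 ± 0.06, adjusted p = 2.5e-04), and its change under RE (log2 0.17 ± 0.06, adjusted p = 0.051) was called with the replicate block (adjusted p = 0.048), by DESeq2, with RLE scaling and without DMSO replicate 2. Slc3a2 (chromosome 19, 8684931 to 8700733), the heavy chain that pairs with Slc7a5 and Slc7a11, stood at 279, 277 and 271 CPM under DMSO, at 248, 245 and 208 CPM under C16 and at 327, 323 and 316 CPM under RE. It fell under C16 (log2 -0.20 ± 0.06, adjusted p = 0.018; -0.13 without C16 replicate 3) and rose under RE (log2 0.27 ± 0.06, adjusted p = 0.014). Slc7a11 (chromosome 3, 50319385 to 50403947), the cystine and glutamate exchanger, stood at 38.4, 33.6 and 33.9 CPM under DMSO, at 37.5, 36.1 and 33.1 CPM under C16 and at 55.3, 47.7 and 44.8 CPM under RE. The RE libraries were all above the DMSO and C16 libraries, and it rose under RE (log2 0.52 ± 0.08, adjusted p = 0.0025) but gave log2 0.05 ± 0.08, adjusted p = 0.64 under C16. Slc38a2 and Slc1a5, carriers of small neutral amino acids and of glutamine, changed under RE by 0.21 ± 0.05 and -0.12 ± 0.04 (adjusted p = 0.015 and 0.036), and their C16 changes of log2 0.10 and 0.06 were not called. The Slc38a2 call was lost without DMSO replicate 1 and the Slc1a5 call in 7 of 10 alternatives, among them leaving out any one library. Slc7a1, the cationic amino acid carrier, stood at 242, 242 and 139.7 CPM under C16, with replicate 3 below the DMSO range of 148 to 174 CPM. It gave log2 0.40 ± 0.18, adjusted p = 0.075, and log2 0.62 ± 0.06, adjusted p = 1.2e-05 without that replicate. Slc1a4, the related carrier ASCT1, was not called against DMSO (under C16 it was without DMSO replicate 1), and stood higher under C16 than under RE (log2 0.42 ± 0.16, adjusted p = 0.036), a call lost in 4 of 10 alternatives.

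**Figure D4:**
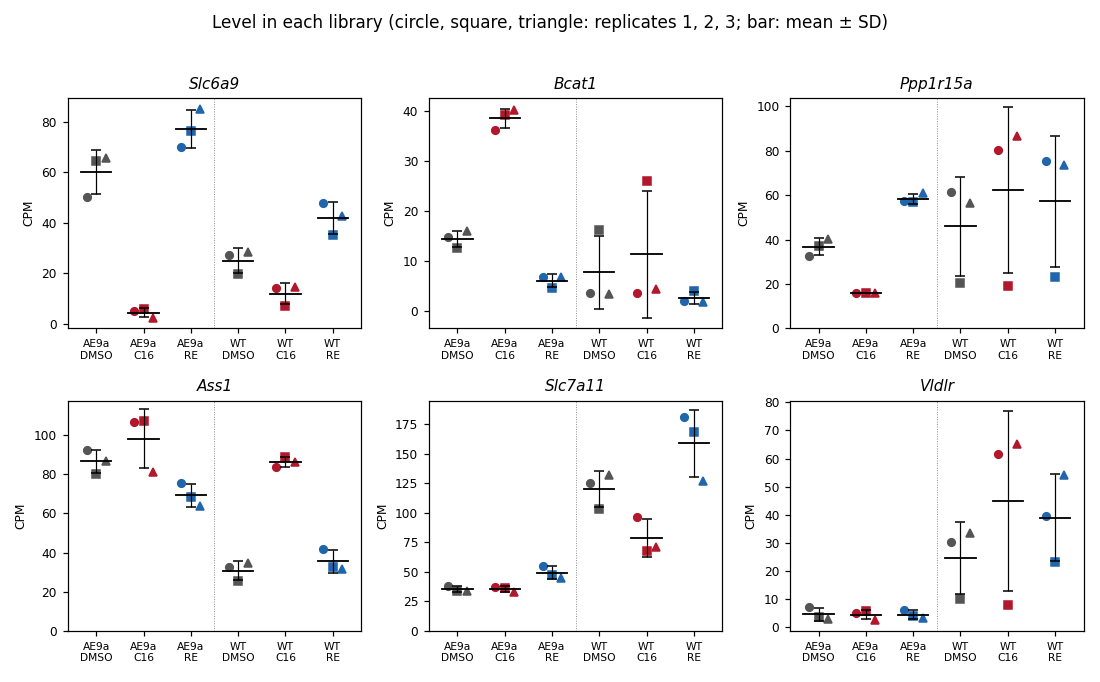
Level in CPM of 6 genes whose response or genotype difference was large, in each of the 18 libraries, with circles, squares and triangles for replicates 1, 2 and 3 and bars for mean ± SD. In AE9a cells Slc6a9 lies at 2.31 to 5.72 CPM under C16 against at least 50.2 CPM elsewhere, and Bcat1 is high under C16 and low under RE. In WT cells Ass1 rises under C16, and replicate 2 (squares) stands apart for Bcat1, Ppp1r15a and Vldlr.

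The 10 genes with the composite motif were read beside the 22 without it, as a description. Over all genes, 33.1% were called higher and 33.2% lower under C16 in AE9a cells, and 12.2% and 16.8% under RE. Without AE9a C16 replicate 3, 64.8% were called under C16 in either direction. With the replicate block, 4969 of 14704 genes were higher and 4964 lower under C16. Under C16 in AE9a cells none of the 10 rose and 2 fell, Asns and Trib3, while 10 of the 22 rose and 6 fell. Without AE9a C16 replicate 3, 2 of the 10 rose, Atf3 and Nupr1, and 4 fell, with Herpud1 and Pycr1 added, against 12 and 6 of the 22, and with the replicate block 1 of the 10 rose, Atf3, and 2 fell. Under RE 1 of the 10 rose, Slc7a11, and 1 fell, Asns, against 4 and 8 of the 22. Chac1 and Nupr1, whose windows are printed above, changed by 0.36 and 0.34 under C16 and were not called with all libraries. The 2 sets were not matched for level. In AE9a cells under DMSO Chac1, Nupr1, Vldlr, Pycr1, Slc1a4 and Trib3 had means of 2.92, 4.43, 4.63, 5.12, 6.50 and 7.62 CPM. Aldh18a1, without the motif, had 113 CPM and was called at a smaller change than Chac1 and Nupr1. Stc2 and Gpt2, also without it, were called at 2.71 and 7.61 CPM. The part of level in these counts was not tested.

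Other genes of these pathways, from lists that hold no member, gave the following in AE9a cells. Over all genes, 33.1% were called higher and 33.2% lower under C16 (66.3% in either direction). Under RE 12.2% were called higher and 16.8% lower (29.0% in either direction). Of 21 cytosolic aminoacyl-tRNA synthetase and tRNA export genes, some of which ATF4 is known to raise, 19 rose and none fell under C16 (median log2 0.45). Under RE 1 of them rose and 15 fell (median -0.18). Gars1, for glycine, changed by 0.66 and -0.17 under C16 and RE, and Sars1, for serine, by -0.03 (not called) and 0.15. Of 15 further folate and glycine enzymes, 10 rose and 2 fell under C16 (median 0.47), and 1 rose and 7 fell under RE (median -0.13). Among them Mthfd1l, the mitochondrial formate enzyme, changed by 0.71 and -0.47, and Shmt1, the cytosolic partner of Shmt2, by 0.88 and -0.51. Of 15 eIF2 kinase, eIF2 and eIF2B genes, 8 rose and 1 fell under C16 (median 0.36) and none rose and 3 fell under RE (median -0.11). The kinase genes Eif2ak1 and Eif2ak4, which sense haem and amino acids, were not called under C16 (-0.06 and 0.12), and Eif2ak3, which senses unfolded protein, fell (log2 -0.20). Of 20 endoplasmic reticulum chaperone and unfolded protein response genes, 13 rose and 4 fell under C16 (median 0.35) and 1 rose and 7 fell under RE (median -0.10). Hsp90b1 changed by 0.65 and -0.15, and Dnajb9 by -0.31 and 0.22. The median over all genes was 0.00274 under C16 and -0.00807 under RE.

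In WT cells the compounds moved fewer of the genes past the test. With all libraries C16 raised Ass1 and lowered Trib3 and no other member, where 3.10% of all genes were called (0.957% higher and 2.15% lower). RE moved none, where 0.0266% were called; 4 members had an unadjusted p under 0.05, DESeq2 called none, and the replicate block none where it called 0.512% of all genes. Under C16 the block, which the same-number correlations of WT libraries allow, called 8 higher and 7 lower (24.2% of all genes), and leaving out replicate 2, with 2 libraries a group, called 16 higher and 9 lower (41.7% of all genes). Under RE, leaving out replicate 2 called 5 higher and 3 lower (8.02% of all genes). Ass1 stood at 32.6, 25.2 and 34.7 CPM under DMSO, at 83.7, 88.8 and 86.3 CPM under C16 and at 42, 32.7 and 31.7 CPM under RE. All C16 libraries were above all others, for a change of log2 1.55 ± 0.15, adjusted p = 0.017, and 1.39 ± 0.11 without replicate 2. Trib3 stood at 9.35, 8.54 and 8.72 CPM under DMSO, at 4.84, 5.71 and 4.75 CPM under C16 and at 12.1, 13.2 and 11.5 CPM under RE. It fell under C16 (log2 -0.73 ± 0.15, adjusted p = 0.048); the call was lost without a filter on low counts (adjusted p = 0.11) and without any one of WT DMSO 1, 2 and 3 and WT C16 1 and 3. The Ass1 call was lost without any one of WT DMSO 1 and 3 and WT C16 1 and 3.

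Atf4 stood at 226, 231 and 222 CPM under DMSO, at 249, 311 and 271 CPM under C16 and at 228, 199 and 229.9 CPM under RE in WT cells, for log2 0.36 ± 0.11, adjusted p = 0.1 under C16 and log2 0.27 ± 0.06, adjusted p = 0.0056 without replicate 2. Phgdh stood at 164, 206 and 162 CPM under DMSO, at 189.8, 384 and 188 CPM under C16 and at 129.6, 139 and 133 CPM under RE. Shmt2 stood at 145, 177 and 135 CPM under DMSO, at 155, 258 and 159 CPM under C16 and at 123, 118 and 127 CPM under RE. In both genes C16 replicate 2 was far above the other 2 C16 libraries, which lay within the DMSO range. Psat1 stood at 180.1, 249 and 193 CPM under DMSO, at 236, 341 and 231 CPM under C16 and at 151, 175 and 160.0 CPM under RE. Mthfd2 stood at 58.6, 87.2 and 62.6 CPM under DMSO, at 70.9, 119.8 and 71.4 CPM under C16 and at 56.8, 68.1 and 53.1 CPM under RE. Replicate 2 was again the highest of each trio, and it held the highest primary granule and neutrophil marker sum under each treatment. For these 4 enzymes the C16 changes were 0.59 (Phgdh), 0.40 (Shmt2), 0.45 (Psat1) and 0.40 (Mthfd2), none called, and 0.27, 0.23, 0.38 and 0.29, all called, without replicate 2. Asns stood at 42.9, 63.1 and 50.1 CPM under DMSO, at 65, 71.7 and 62.8 CPM under C16 and at 41.5, 45.1 and 44.3 CPM under RE. Its C16 change was log2 0.42 ± 0.15, adjusted p = 0.16, and log2 0.51 ± 0.08, adjusted p = 9.9e-04 without replicate 2. Ddit3 stood at 19, 12.5 and 19.2 CPM under DMSO, at 19.6, 12.9 and 22.6 CPM under C16 and at 21.7, 11.8 and 20.5 CPM under RE, and neither compound gave a called change. Among transporters, Slc7a11 stood at 125, 103 and 132 CPM under DMSO, at 96.8, 67.4 and 71.4 CPM under C16 and at 181, 168 and 127 CPM under RE, and all C16 libraries lay below all DMSO and RE libraries. Its C16 change was log2 -0.55 ± 0.18, adjusted p = 0.13, called with the block (adjusted p = 0.033) and without replicate 2 (0.028). Slc7a5 stood at 240.4, 311 and 253 CPM under DMSO, at 274, 354 and 259.9 CPM under C16 and at 251, 296 and 252 CPM under RE. Slc3a2 stood at 329.8, 270.0 and 329.9 CPM under DMSO, at 312, 280.3 and 318 CPM under C16 and at 359, 289 and 352 CPM under RE. The groups of both genes overlapped, and neither was called with all libraries. Without replicate 2 Slc7a5 was called higher under C16 (log2 0.17 ± 0.05, adjusted p = 0.025). Slc6a9 stood at 27.1, 19.6 and 28.5 CPM under DMSO, at 14, 7.12 and 14.8 CPM under C16 and at 47.9, 35.3 and 42.7 CPM under RE. Its C16 libraries lay below the others, for log2 -1.01 ± 0.26, adjusted p = 0.081, and log2 -1.03 ± 0.15, adjusted p = 0.0053 with the block. Without replicate 2 it was called lower under C16 (-0.89) and higher under RE (0.71).

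Between C16 and RE in WT cells 7 of the genes were called (4 higher and 3 lower under C16) where 11.9% of all genes were (5.40% higher and 6.49% lower), 19 with the block (34.2%) and 22 without replicate 2 (44.3%). Ass1 (log2 1.32 ± 0.14, adjusted p = 0.0052), Psat1 (log2 0.77 ± 0.20, adjusted p = 0.047), Asns (0.64 ± 0.15) and Aldh18a1 (0.42 ± 0.09) stood higher under C16. Slc6a9 (log2 -1.78 ± 0.27, adjusted p = 0.011), Trib3 (log2 -1.23 ± 0.15, adjusted p = 0.0072) and Slc7a11 (-0.99 ± 0.18) stood lower. Aldh18a1 stood at 132, 126 and 131 CPM under C16 and 104, 84.1 and 111 CPM under RE, without overlap. The Psat1 and Asns calls were lost without any one of the 6 libraries, the Aldh18a1 call without C16 1 or 3 or RE 1 or 2, and the Slc7a11 call without C16 3 or RE 1 or 2. Ass1, Slc6a9 and Trib3 were called in all 11 alternatives. Of the 21 tRNA synthetase and export genes 7 rose under C16 against DMSO in WT cells (median 0.36), 13 with the block and 19 without replicate 2, where 3.10%, 24.2% and 41.7% of all genes were called in either direction, and none fell in any of the 3 fits.

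Some members followed WT replicate 2. Stc2 stood at 0.462, 10.2 and 0.792 CPM under DMSO, at 1.32, 10.5 and 1.48 CPM under C16 and at 1.84, 24.5 and 2.38 CPM under RE. Ppp1r15a stood at 61.3, 20.4 and 56.5 CPM under DMSO, at 80.6, 19.2 and 86.8 CPM under C16 and at 75.2, 23.1 and 73.4 CPM under RE. Replicate 2 was the highest of each trio for Stc2 and the lowest for Ppp1r15a. Bcat1 stood at 3.69, 16.2 and 3.38 CPM under DMSO, at 3.67, 26.1 and 4.38 CPM under C16 and at 2.01, 4.05 and 1.83 CPM under RE, again highest in replicate 2. Vldlr stood at 30.4, 9.89 and 33.4 CPM under DMSO, at 61.5, 7.90 and 65.2 CPM under C16 and at 39.5, 23.2 and 54 CPM under RE, lowest in replicate 2. The sum of 10 megakaryocyte and platelet markers was 3127, 405 and 2789 CPM under DMSO, 9981, 308 and 11071 CPM under C16 and 4154, 546 and 4658 CPM under RE in WT cells, and that of 11 primary granule and neutrophil markers 4733, 17156 and 4702, 5114, 11898 and 3427, and 4421, 25440 and 3879 CPM. Their part in the levels of these 4 genes was not tested.

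Between the genotypes under DMSO, AE9a cells held more of the asparagine and arginine enzymes and less of the cystine exchanger. Of the 36 genes 4 stood higher and 5 lower in AE9a cells, where 26.7% of all genes were called (12.9% higher and 13.8% lower), and 11 and 12 without WT replicate 2 (50.7%). Counts of the genotypes came in separate tables, and genotype and batch cannot be told apart. Ass1 was at 92.3, 80.2 and 86.7 CPM in AE9a and 32.6, 25.2 and 34.7 CPM in WT cells (log2 1.51 ± 0.13, adjusted p = 4.4e-06). Asns was at 129, 125 and 118 against 42.9, 63.1 and 50.1 CPM (log2 1.27 ± 0.11, adjusted p = 4.6e-06). Both enzymes were lower in every WT library. Slc6a9 was at 50.2, 64.7 and 65.8 against 27.1, 19.6 and 28.5 CPM (log2 1.29 ± 0.28, adjusted p = 0.0037). Slc7a5 was at 439, 459 and 433 against 240.4, 311 and 253 CPM (log2 0.74 ± 0.13, adjusted p = 9.1e-04). For both transporters all AE9a libraries lay above all WT libraries. The erythroid marker sum was 878, 1119.9 and 951 against 203, 86.5 and 209 CPM. That of mast cell, basophil and eosinophil markers was 10516, 13929 and 11232 against 3719, 2918 and 4639 CPM. The megakaryocyte and platelet sum ran the other way, at 397, 337 and 269 against 3127, 405 and 2789 CPM. The part of these markers was not tested. Slc7a11 was at 38.4, 33.6 and 33.9 against 125, 103 and 132 CPM (log2 -1.75 ± 0.15, adjusted p = 3.3e-06). Ddit4 was at 39, 46.4 and 31.4 against 76.6, 77 and 70.3 CPM (log2 -0.92 ± 0.13, adjusted p = 1.3e-04). Vldlr was at 7.26, 3.68 and 2.95 against 30.4, 9.89 and 33.4 CPM (log2 -2.39 ± 0.67, adjusted p = 0.016). Each of these 3 was lower in all AE9a libraries. Atf3 was at 15.1, 16.1 and 13.5 against 32.9, 21.4 and 26.1 CPM (log2 -0.83 ± 0.22, adjusted p = 0.013), and Cebpg was lower by a small step (log2 -0.23 ± 0.07, adjusted p = 0.024). The Vldlr call was lost without AE9a DMSO 2 or 3 or WT DMSO 3, the Atf3 call without AE9a DMSO 3 or WT DMSO 1, and the Cebpg call without a filter on low counts and without any one library but WT DMSO 1. Atf4 itself (log2 -0.01 ± 0.08, adjusted p = 0.93), Phgdh (log2 0.25 ± 0.22, adjusted p = 0.42) and Ddit3 (log2 0.31 ± 0.22, adjusted p = 0.33) were not called; without WT replicate 2 Phgdh was called higher in AE9a cells (log2 0.40 ± 0.06, adjusted p = 7.9e-05).

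The response to C16 differed between the genotypes in 5 of the 36 genes, where 13.1% of all genes were called (4.78% higher and 8.29% lower), 22 with the block (36.8%) and 25 without WT replicate 2 (49.8%). Asns fell in AE9a cells (-0.56 ± 0.05) and stood at 0.42 ± 0.15 in WT cells, a difference of log2 -0.93 ± 0.16, adjusted p = 0.0024. Ass1 rose in WT cells (1.55 ± 0.15) and was not called in AE9a cells (0.22 ± 0.11; 0.34 ± 0.07 and called without C16 replicate 3), a difference of log2 -1.28 ± 0.19, adjusted p = 8.6e-04. Slc6a9 fell more in AE9a (-3.74) than in WT cells (-1.01), a difference of log2 -2.69 ± 0.41, adjusted p = 0.0012. Ddit4 fell in AE9a cells (-0.69) beside 0.07 in WT cells (0.21 and called without replicate 2), a difference of log2 -0.71 ± 0.18, adjusted p = 0.021. Nupr1, at 4.75, 3.90 and 4.63 CPM under DMSO and 5.54, 5.92 and 4.82 CPM under C16 in AE9a cells and at 7.21, 10.7 and 5.39 and 2.24, 4.78 and 2.69 CPM in WT cells, differed by log2 1.58 ± 0.49, adjusted p = 0.047. For Phgdh, Psat1, Psph, Shmt2 and Mthfd2 the difference in the C16 response ran from log2 0.30 (Psat1) to 0.66 (Mthfd2) and was not called in any; with the block all 5 were called (0.31 to 0.68). The response to RE differed between the genotypes in no member, where 0% of all genes were called; 1 member had an unadjusted p under 0.05, and DESeq2 and the block called none, the block calling 0.0443% of all genes.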

How the data were processed

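Fragments were counted in 18 libraries of 2 genotypes and 3 treatments, 3 a group. The deposited tables hold raw counts per gene on GRCm39 with each gene's exon length, per the file headers. Those headers name featureCounts 1.6.2 and the submitters' processing notes featureCounts 2.0.3, with FastQC 0.11.9, fastp 0.23.2 and HISAT2 2.1.0. Counting ignored strand, per the file headers, so genes that overlap others or have close copies may share fragments. 0 columns were left unmatched and 0 pairs of libraries were identical.

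Genes passing filterByExpr were scaled by TMM (factors 0.959 to 1.05) and tested with edgeR 4.0.16 quasi-likelihood F tests in R 4.3.3, adjusted by Benjamini-Hochberg over all tested genes (14704 in the 9 AE9a libraries, 15046 in the 9 WT libraries and 15809 in all 18). CPM are counts over the library total without TMM, and FPKM are CPM per kilobase of the deposited exon length. The scripts were tested on simulated data. The simulated spread was below that of the fits of the WT libraries and of all 18 without a block. How well changes are found at the spread of those fits was not tested. The alternatives were DESeq2 1.42.0, RLE scaling, no filter on low counts, the replicate number as a block, no WT replicate 2, and leaving out each library.

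Values in every library were given for 10 set genes and, in each comparison, for up to 8 called members of at least 5 CPM without overlap, by size. The members, lists, motifs and rules were chosen with earlier results of these data known. List genes were matched by current symbol (17 renamed, 1 not in the tables). Promoters are RefSeq's on GRCm38.p6.

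Same-number libraries deviated together from their group means in WT cells (correlations 0.53 to 0.841) and between AE9a DMSO and RE (0.251 to 0.337). The part of WT replicate 2 in these values was not tested. Numbers were treated as pairs only in the alternative with the replicate block, and all other fits had no block. Between AE9a DMSO and C16 (0.0614, 0.254 and 0.142), AE9a C16 and RE (lowest 0.0969) and the genotypes (-0.101 to -0.0168) pairing was not shown.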

Additional observations from a re-analysis of the deposited data

Results flagged for a closer look

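By a test of the difference itself (edgeR, all 18 libraries), the response to C16 differed between AE9a and WT cells in 5 of the 36 tested genes. That share, 13.9%, is close to the 13.1% called over all genes. With the replicate block 22 members were called, where 36.8% of all genes were. The differences, AE9a minus WT on the log2 scale, were -2.69 for Slc6a9, -1.28 for Ass1, -0.93 for Asns, -0.71 for Ddit4 and 1.58 for Nupr1. They rest on the libraries labelled AE9a C16, whose low Runx1t1 and nearness to WT C16 replicate 2 are given in the label check above. The part of this in the differences was not tested. Asns and Ddit4 fell in AE9a cells (-0.56 and -0.69) and were called higher in WT cells once replicate 2 was left out (0.51 and 0.21). Slc6a9 fell in AE9a cells together with the erythroid marker sums (878, 1119.9 and 951 CPM under DMSO and 75.4, 70.5 and 26.8 CPM under C16), while in WT cells these sums were 203, 86.5 and 209 and 176, 62.5 and 186 CPM. The mast cell, basophil and eosinophil sums fell too in AE9a cells (10516, 13929 and 11232 to 1761, 2251 and 322 CPM). In WT cells those were 3719, 2918 and 4639 and 3052.5, 1569 and 2741 CPM. The part of these markers was not tested. Without WT replicate 2 the 5 differences were -2.78, -1.11, -1.02, -0.84 and 1.69, all called. The Nupr1 call was lost in 11 of 17 alternatives: without a filter on low counts and without any one library other than WT DMSO 3 and WT C16 2 (adjusted p = 0.066 to 0.13). The Ddit4 call was lost without AE9a DMSO 2, AE9a C16 1, WT C16 1 or WT C16 3 (adjusted p = 0.054 to 0.059), and the other 3 were called in all 17.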

How the results depend on the processing

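All 20 calls of C16 against DMSO in AE9a cells held in each alternative run, and 24 of the 28 calls of C16 against RE, 10 of the 15 of RE against DMSO and 6 of the 9 between the genotypes did so. For C16 against DMSO in WT cells the 2 calls became 5 with DESeq2, 1 without a filter on low counts and 15 with the replicate block. Over all genes, 144 were higher and 323 lower of 15046 in the main fit, and 897 and 981 of 15046 with DESeq2. Without the filter these were 38 and 168 of 26543, and with the block 1565 and 2081 of 15046. For C16 against RE in WT cells the 7 calls became 12, 4 and 19 under the same settings. Over all genes, 812 were higher and 977 lower in the main fit, then 1554 and 1618, 345 and 575, and 2368 and 2777. For the genotype difference in the C16 response the 5 calls became 8 with DESeq2 and 22 with the replicate block. Over all 15809 genes tested, 755 were higher and 1310 lower in the main fit, 1105 and 1977 with DESeq2 and 3070 and 2743 with the block. The block changed no other count of members by over 1.5 times, and added Atf3 under C16 and Ass1 and Slc7a5 under RE in AE9a cells.

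Leaving out single libraries, or all WT libraries of replicate 2, gave 20 to 26 calls for AE9a C16 against DMSO, 10 to 15 for AE9a RE against DMSO, 25 to 29 for AE9a C16 against RE, 0 to 25 for WT C16 against DMSO, 0 to 8 for WT RE against DMSO, 3 to 22 for WT C16 against RE, 6 to 23 between the genotypes under DMSO, 3 to 25 for the genotype difference under C16 and 0 to 0 for that under RE. In each of the 5 comparisons with WT libraries that had any call, the highest value came without WT replicate 2. The share of all genes called rose there too: from 3.10% to 41.7% for WT C16 against DMSO and from 0.0266% to 8.02% for WT RE against DMSO. It rose from 11.9% to 44.3% for WT C16 against RE, from 26.7% to 50.7% between the genotypes and from 13.1% to 49.8% for the genotype difference under C16. The cause was not tested. Over the 36 tested genes and all comparisons the sign turned in at least 1 alternative for 82 of 324 values, none of them called with all libraries, and was called where it turned for Stc2 between the genotypes alone (log2 -0.49, and 2.14 without WT replicate 2). Examples are Slc7a11 under C16 in AE9a cells (log2 -0.0035 without AE9a DMSO replicate 2 and -0.0118 without AE9a C16 replicate 1, up to 0.0928 without AE9a C16 replicate 3) and Slc3a2 under C16 in WT cells (-0.0121 without WT replicate 2 and -0.0548 without WT DMSO replicate 2, up to 0.07 without WT DMSO replicate 1), none of them called.

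The limits are 3 libraries a group, a biological coefficient of variation of 0.329 in WT against 0.103 in AE9a cells, and genes at few CPM (Cbs, Cth, Aldh1l2, Chac1). RNA levels do not measure eIF2 phosphorylation or ATF4 protein.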

Other observations

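Further lists that hold no member were read in AE9a cells, where 66.3% of all genes were called under C16 and 29.0% under RE. Of 13 tested hypoxia response genes, 7 rose and 4 fell under C16 (median log2 0.44) and 3 rose and 2 fell under RE (median -0.0014). Egln3, a prolyl hydroxylase that marks HIF for decay, stood at 44, 43.8 and 41.1 CPM under DMSO, 106, 112 and 94.9 CPM under C16 and 27.3, 27.1 and 23.4 CPM under RE. It rose under C16 (log2 1.31, adjusted p = 1.8e-06) and fell under RE (-0.68, adjusted p = 8.0e-04). Pdk1, a pyruvate dehydrogenase kinase, likewise rose under C16 (0.99) and fell under RE (-0.62). These are the 2 genes of the list that fell under RE. The 4 that fell under C16 and the 3 that rose under RE went the other way.

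Of 12 redox genes linked to NRF2, 4 rose and 4 fell under C16, and 2 rose and 1 fell under RE, shares close to those over all genes. Nqo1, a quinone reductase, fell under C16 from 18.8, 17.4 and 27.5 to 4.30, 4.14 and 3.90 CPM (log2 -2.33, adjusted p = 4.0e-05).

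Of 14 tested further amino acid transporters, 5 rose and 6 fell under C16, and 2 rose and 4 fell under RE. Slc7a7, a carrier of cationic amino acids, fell under C16 from 20.2, 23.8 and 21.8 to 3.60, 4.70 and 4.82 CPM (log2 -2.29). Slc38a5, a glutamine and glycine carrier, stood at 3.32, 3.90 and 3.26 CPM under DMSO and 2.97, 3.15 and 4.05 CPM under RE, and at 0, 0.0395 and 0 CPM under C16, where 1 library held a single fragment and the others none. Slc38a1, a related glutamine carrier, rose under C16 (0.95) and fell under RE (-0.46). In WT cells, with all libraries, none of the 3 lists had more than 1 gene called for either compound, where 3.10% of all genes were called under C16 and 0.0266% under RE. Without WT replicate 2 (41.7% and 8.02%) the hypoxia list had 0 higher and 5 lower under C16 and 0 and 2 under RE, the redox list 5 and 3 and 3 and 0, and the transporters 0 and 6 and 0 and 2.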
